A study of Mus musculus with 24 samples.

Results

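Mouse hearts of the inbred strain C57BL/6 that had been reperfused for 3 h were compared with hearts reperfused for 1.5 h. In both cases 45 min of ischemia, an arrest of the blood supply to the muscle, had come first. The libraries were chosen by their treatment label, 3 at 3 h and 3 at 1.5 h, which makes 6 of the 24 libraries of the series. The remaining libraries came from wild-type hearts of the same strain after ischemia and 12, 6, 1 or 0.5 h of reperfusion, after ischemia alone, or after sham surgery, with 3 libraries in each of the 8 groups. Total RNA from frozen heart tissue was made into messenger RNA libraries. The labels name no transgene, drug or engineered allele, and they do not say which region of the heart was taken. The title of the series names Atf3 and Fancd2, so both are reported whatever their change.

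When flow returns, oxidants, calcium overload and signals from injured cells switch on kinases in muscle, vessel and stromal cells. Immediate early genes such as Fos, Jun and Zfp36 respond directly to these kinases, without new protein synthesis, and their short-lived messenger RNAs decline again soon after the stimulus fades. Other genes can change later, among them cytokine receptors, adhesion molecules, chaperones of the endoplasmic reticulum and genes of the extracellular matrix. Whether these depend on the immediate early genes was not tested here.

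Between 15749677 and 16169048 uniquely mapped reads were counted in genes in each of the 6 libraries. Reads marked as duplicates made up 41.8% to 50.8% of them. Genes of the mitochondrial genome held 22.5% ± 2.64 of the counts at 3 h and 26.4% ± 1.27 at 1.5 h (SD, n = 3 each). Levels are given as CPM, read counts brought to a common library size after TMM scaling, in the order of replicates 1, 2 and 3, or as mean ± SD of the 3 libraries of a group. A count of 3 reads, the lowest level treated as detected, corresponded to 0.186 to 0.190 CPM. The labelled tissue matched its markers in all 6 libraries, in which all 15 ventricular cardiomyocyte markers were detected, with summed levels of 87436, 119950 and 99943 CPM at 3 h and 98927, 99458 and 104720 CPM at 1.5 h. The libraries of 3 h differed more among themselves than those of 1.5 h. On the first principal component of log2 CPM over all 24 libraries, which held 35.5% of the variance, they lay at 25.2, 1.23 and 19.2, against -22.6, -20 and -13.4 at 1.5 h. Replicate 2 of 3 h thus lay nearest to 1.5 h, and it also had the highest level of ventricular markers. No pair of libraries was identical. Whether strand was used in counting is not stated, so reads of overlapping or antisense genes are of uncertain origin. Separate animals are not stated for the libraries of 1 group, so a p-value sets a change against the spread of these samples only, and that spread may be technical.

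More genes rose than fell between 1.5 and 3 h. With edgeR's quasi-likelihood test and Benjamini-Hochberg adjustment, 811 of 15128 tested genes (5.36%) were called higher at 3 h and 479 (3.17%) lower, at an adjusted p under 0.05, which is 8.53% in either direction. Of the called genes, 773 of those that rose and 457 of those that fell code for proteins. A change of at least 2-fold was reached by 280 of the called rises (1.85% of tested genes) and by 98 of the called falls (0.648%). The 3 libraries of 3 h lay all above those of 1.5 h in 2010 genes (13.3%) and all below them in 1860 (12.3%). The number called depended on single libraries. With 3 h replicate 2 left out it was 1050 higher and 701 lower. Leaving out 3 h replicate 1 gave 427 and 273, and leaving out 3 h replicate 3 gave 391 and 143. With 1.5 h replicate 1 left out it was 393 and 227, and with 1.5 h replicate 2 left out 359 and 166. Of 114 called genes named under Results, 46 kept the call and direction in every alternative run, and the libraries that others depended on are given with them. For the further genes under Other observations, Xrcc2 among them, no alternative run is given.

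Messenger RNAs of immediate early genes were among the largest falls. Jun, which encodes a component of the transcription factor AP-1 (chr4:95049034-95052222, reverse strand of GRCm38, the assembly that mm10 names), had 188, 282 and 206 CPM at 3 h, against 855, 572 and 876 CPM at 1.5 h (log2 fold change -1.77 ± 0.35, adjusted p = 0.00265). Fos, its partner, had 233, 402 and 226 CPM at 3 h, against 909.7, 668 and 995 CPM at 1.5 h (log2 fold change -1.58 ± 0.41, adjusted p = 0.0187). Both genes were lower in every library of 3 h than in any of 1.5 h, and both stayed above the level of sham hearts, 48.6 ± 17.5 CPM for Jun and 11.97 ± 6.55 CPM for Fos. Zfp36 encodes tristetraprolin, which binds AU-rich elements and speeds the decay of cytokine messenger RNAs, and it had 182, 179.8 and 204 CPM at 3 h, against 525, 379.7 and 534 CPM at 1.5 h (log2 fold change -1.35 ± 0.27, adjusted p = 0.00299). Ier2, another immediate early gene, had 55.3, 70.6 and 52.02 CPM at 3 h, against 148, 127 and 159 CPM at 1.5 h (log2 fold change -1.29 ± 0.28, adjusted p = 0.00601). In neither gene did the libraries of the 2 times overlap. Klf2, a flow-responsive transcription factor of endothelium, fell to 83.1 ± 8.796 CPM at 3 h, against 193 ± 36.04 CPM at 1.5 h (log2 fold change -1.22 ± 0.25, adjusted p = 0.00401). Apold1, an early response gene of vascular endothelium, had 56.2, 102 and 109 CPM at 3 h, against 411, 237 and 276 CPM at 1.5 h (log2 fold change -1.79 ± 0.47, adjusted p = 0.0206). The calls of Jun, Zfp36, Ier2 and Klf2 held in every alternative. That of Fos was lost with 3 h replicates 1 or 3 or 1.5 h replicate 1 left out (adjusted p = 0.0807, 0.0982 and 0.0549). Apold1 missed the threshold with 3 h replicates 1 or 3 or 1.5 h replicate 1 left out (adjusted p = 0.0987, 0.0521 and 0.0905).

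AP-1 genes were called in both directions. Of the 15 tested AP-1 and ATF factors, 2 were called lower (Jun and Fos), 2 higher and 11 in neither direction, with 3.17% and 5.36% of all tested genes called lower and higher. The list had a median log2 fold change of -0.06, against -0.00 over all tested genes. Fosl1, which encodes the AP-1 subunit Fra-1, had 18.3, 12.6 and 13.7 CPM at 3 h, against 4.07, 3.24 and 6.11 CPM at 1.5 h (log2 fold change 1.73 ± 0.26, adjusted p = 0.00026), and no library of 3 h overlapped those of 1.5 h. Mafk, a small Maf protein that pairs with NRF2 and Bach factors, had 193 ± 41.1 CPM at 3 h, against 112 ± 18.7 CPM at 1.5 h (log2 fold change 0.78 ± 0.21, adjusted p = 0.0235). Its call was lost with 3 h replicate 3 or 1.5 h replicates 1 or 2 left out (adjusted p = 0.143, 0.0754 and 0.126). Atf3, a stress-induced factor of the ATF/CREB family, stayed high without a call. Its values were 357, 591 and 444 CPM at 3 h, against 559, 454 and 715 CPM at 1.5 h (log2 fold change -0.31 ± 0.46, adjusted p = 0.734). The libraries of both times overlapped, and all lay above the 8.47 ± 0.389 CPM of sham hearts. Fosb was not called either, and its 3 h libraries were widely scattered, with 238, 1105 and 404 CPM at 3 h, against 1048, 558 and 941 CPM at 1.5 h (log2 fold change -0.54 ± 0.54, adjusted p = 0.591). Junb (-0.44 ± 0.36, adjusted p = 0.508) and Fosl2 (-0.18 ± 0.31, adjusted p = 0.786) were not called. Rises numbered 1 with 3 h replicate 3 left out and 1 and 1 with 1.5 h replicates 1 and 2 left out, and falls numbered 1 and 1 with 3 h replicates 1 and 3 left out, 1 with 1.5 h replicate 1 left out and 4 with no filter on low counts. Fosb passed the threshold with no filter on low counts (adjusted p = 0.00406), and Junb did so with no filter on low counts (adjusted p = 0.0322). In that fit the prior degrees of freedom of the dispersion were estimated as infinite, against 8.15 with the filter, so that every gene was tested with the trended dispersion and not with its own.

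**Figure D1:**
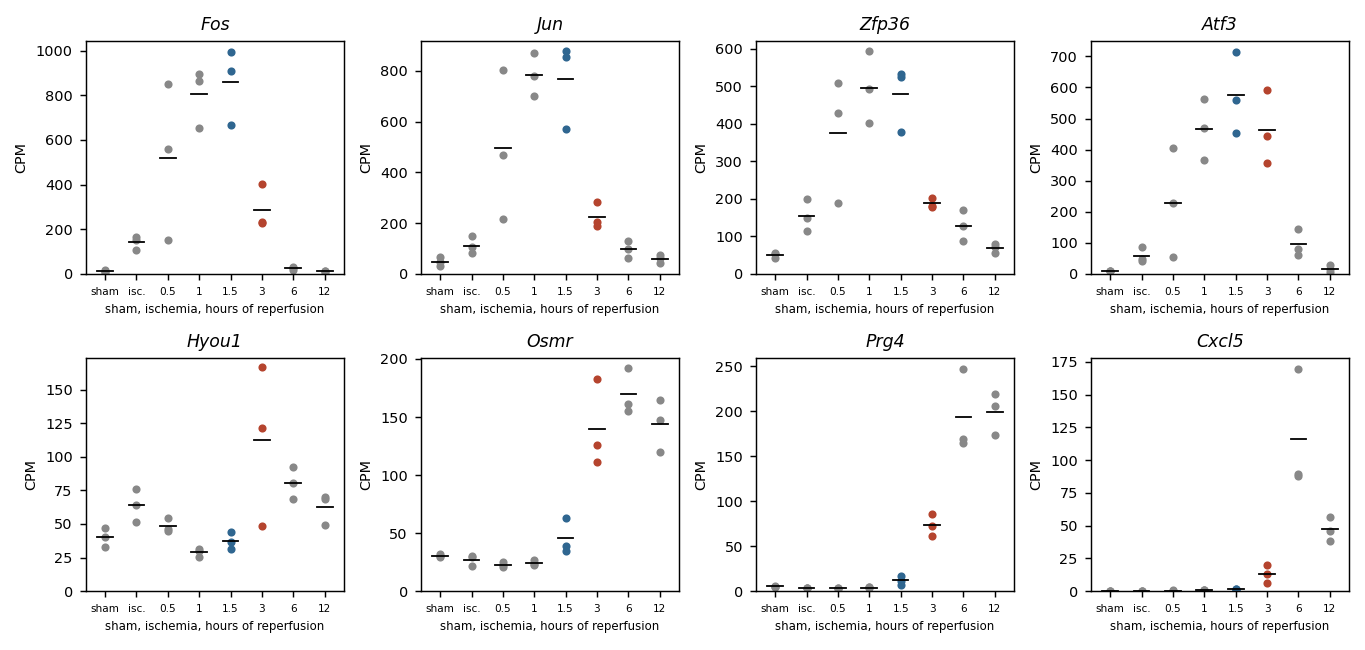
Levels of 8 genes in all 24 libraries, in CPM of the TMM-scaled library, against condition (sham, ischemia, then 0.5 to 12 h of reperfusion after 45 min of ischemia), with 1 point per library, a bar at each group mean, 3 h in red and 1.5 h in blue. Fos, Jun and Zfp36 are lower in all 3 libraries of 3 h than at 1.5 h, Atf3 overlaps, and Hyou1, Osmr, Prg4 and Cxcl5 are higher in all 3.

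The list of Egr, Nr4a and Kruppel-like factors also holds genes outside these families, among them Ier2 and the corepressor Nab2. Of its 28 tested members, 2 were called lower (Klf2 and Ier2) and 1 higher (Nab2), beside 3.17% and 5.36% of all tested genes. The median was 0.09. Rises numbered 0 with 3 h replicate 1 left out, 0 with 1.5 h replicate 2 left out, 2 with DESeq2 and 6 with no filter on low counts, and falls numbered 5 with only the 6 libraries in the fit, 4 with DESeq2 and 9 with no filter on low counts. Egr1 had 449, 689.9 and 354 CPM at 3 h, against 1023, 936 and 1367 CPM at 1.5 h. Its libraries did not overlap, yet the change missed the threshold (log2 fold change -1.16 ± 0.49, adjusted p = 0.156), as did that of the nuclear receptor Nr4a1 (-1.15 ± 0.47, adjusted p = 0.133). Egr1 passed the threshold with only the 6 libraries in the fit (adjusted p = 0.0208) and with no filter on low counts (adjusted p = 2.45e-13), and Nr4a1 did so with no filter on low counts (adjusted p = 3.45e-13). Nab2, a corepressor of Egr factors, rose to 7.995 ± 3.92 CPM at 3 h, against 3.16 ± 0.951 CPM at 1.5 h (log2 fold change 1.35 ± 0.31, adjusted p = 0.00804), although 3 h replicate 2 lay within the 1.5 h range. Its call was lost with 3 h replicate 1 or 1.5 h replicate 2 left out or with only the 6 libraries in the fit (adjusted p = 0.0766, 0.066 and 0.064). Among 24 genes of MAP kinase feedback and messenger RNA decay, 2 rose and 2 fell, beside 5.36% and 3.17% of all tested genes. The median was 0.07. The rises numbered 1 and 1 with 3 h replicates 1 and 3 left out, 1 and 1 with 1.5 h replicates 2 and 3 left out, 1 with library totals alone and 4 with no filter on low counts, and the falls 1 and 1 with 3 h replicates 2 and 3 left out, 1 and 1 with 1.5 h replicates 1 and 2 left out and 4 with no filter on low counts. Spred1, an inhibitor of Ras signalling to ERK, had 107, 56.1 and 67.5 CPM at 3 h, against 32.4, 32.2 and 38.2 CPM at 1.5 h (log2 fold change 1.17 ± 0.17, adjusted p = 0.000223), and every 3 h library exceeded every 1.5 h library. Dusp5, a nuclear phosphatase of ERK, rose to 67.3 ± 8.97 CPM at 3 h, against 33.3 ± 11.9 CPM at 1.5 h (log2 fold change 1.01 ± 0.31, adjusted p = 0.0431), while Dusp1, a phosphatase of p38 and JNK, fell to 212 ± 45.1 CPM at 3 h, against 424 ± 114 CPM at 1.5 h (log2 fold change -1.0 ± 0.30, adjusted p = 0.038). The call of Dusp5 was lost with 3 h replicates 1, 2 or 3 or 1.5 h replicates 2 or 3 left out, with library totals alone or with DESeq2 (adjusted p from 0.0575 to 0.223). Dusp1 missed the threshold with 3 h replicates 1, 2 or 3 or 1.5 h replicates 1 or 2 left out (adjusted p from 0.057 to 0.193).

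Among the 10 largest rises were secreted proteins, signalling adaptors and regulators of muscle. The chemokine gene Cxcl5, whose product attracts neutrophils (chr5:90759360-90761624, forward strand), had 19.8, 6.36 and 13.2 CPM at 3 h, against 1.87, 0.539 and 1.93 CPM at 1.5 h (log2 fold change 3.18 ± 0.38, adjusted p = 2.46e-05). Prg4, the gene of the secreted lubricating proteoglycan lubricin (chr1:150449412-150466165, reverse strand), had 85.7, 72.3 and 61.5 CPM at 3 h, against 11.6, 7.28 and 16.998 CPM at 1.5 h (log2 fold change 2.61 ± 0.21, adjusted p = 6.31e-08). Angptl4, an inhibitor of lipoprotein lipase, had 198, 82.3 and 133 CPM at 3 h, against 26.2, 16.6 and 36.5 CPM at 1.5 h (log2 fold change 2.38 ± 0.41, adjusted p = 0.00094). In all of these genes the lowest library of 3 h exceeded the highest of 1.5 h, and in Cxcl5 and Angptl4 replicate 2 was the lowest of 3 h. Tead4, a DNA-binding partner of the coactivator YAP, was tight within both times at 20.4, 16.2 and 18.5 CPM at 3 h, against 3.61, 3.57 and 4.78 CPM at 1.5 h (log2 fold change 2.20 ± 0.21, adjusted p = 6.31e-07). Ankrd2, a stretch-responsive ankyrin repeat protein of muscle, had 7.83, 8.06 and 6.63 CPM at 3 h, against 0.935, 0.539 and 3.39 CPM at 1.5 h (log2 fold change 2.20 ± 0.46, adjusted p = 0.00394). Its 3 h libraries agreed closely, and its 1.5 h libraries ranged more widely. Sh2d5, which encodes an SH2-domain adaptor, rose to 7.61 ± 4.35 CPM at 3 h, against 1.16 ± 0.196 CPM at 1.5 h (log2 fold change 2.72 ± 0.45, adjusted p = 0.000733). Ubash3b, a phosphatase that dampens tyrosine kinase signalling, reached 12.5 ± 6.42 CPM at 3 h, against 2.7 ± 0.591 CPM at 1.5 h (log2 fold change 2.22 ± 0.33, adjusted p = 0.000219).

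Pik3r5, a regulatory subunit of phosphoinositide 3-kinase gamma, had 12.9, 3.698 and 9.95 CPM at 3 h, against 1.67, 2.63 and 2.46 CPM at 1.5 h (log2 fold change 1.98 ± 0.36, adjusted p = 0.00132). Serpina3f, a serine protease inhibitor of the antichymotrypsin family, had 10.99 ± 6.31 CPM at 3 h, against 2.29 ± 0.877 CPM at 1.5 h (log2 fold change 2.26 ± 0.51, adjusted p = 0.00678). Met, the receptor of hepatocyte growth factor, had 5.502 ± 4.098 CPM at 3 h, against 1.402 ± 0.399 CPM at 1.5 h (log2 fold change 1.98 ± 0.47, adjusted p = 0.00978). In these 3 genes replicate 1 was the highest library of 3 h and replicate 2 the lowest. The call of Serpina3f was lost with 3 h replicate 1 left out (adjusted p = 0.0565). Met missed the threshold with 3 h replicate 1 or 1.5 h replicate 2 left out or with limma-voom (adjusted p = 0.128, 0.0673 and 0.0524). The remaining large falls came from genes of other kinds, most of them at low levels. Tada2a, an adaptor of histone acetyltransferase complexes, had 2.41, 3.62 and 2.34 CPM at 3 h, against 5.94, 7.21 and 7.702 CPM at 1.5 h (log2 fold change -1.32 ± 0.19, adjusted p = 0.000187). The zinc finger gene Zfp438 had 2.11, 2.51 and 1.37 CPM at 3 h, against 5.94, 5.06 and 6.18 CPM at 1.5 h (log2 fold change -1.52 ± 0.23, adjusted p = 0.000214). In both genes the 1.5 h level was close to that of sham hearts (7.11 ± 1.11 and 5.31 ± 1.01 CPM), and the 3 h libraries lay below it. Srrm4, a splicing regulator known for neural microexons, fell to 7.24 ± 2.398 CPM at 3 h, against 16.9 ± 4.78 CPM at 1.5 h (log2 fold change -1.23 ± 0.22, adjusted p = 0.00105). Gpr22, an orphan receptor expressed in heart, had 15.1, 10.7 and 8.91 CPM at 3 h, against 33.5, 32.2 and 20.1 CPM at 1.5 h (log2 fold change -1.30 ± 0.32, adjusted p = 0.0123). Rtn4r, the Nogo receptor, had 1.08, 2.44 and 0.9103 CPM at 3 h, against 2.47, 12.5 and 5.11 CPM at 1.5 h (log2 fold change -2.20 ± 0.45, adjusted p = 0.00358), with 1 of its 1.5 h libraries hardly above the highest 3 h library. The call of Gpr22 was lost with 3 h replicate 3 or 1.5 h replicates 1 or 2 left out (adjusted p = 0.0804, 0.0588 and 0.0581). Rtn4r missed the threshold with 1.5 h replicate 2 left out (adjusted p = 0.0634).

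**Figure D2:**
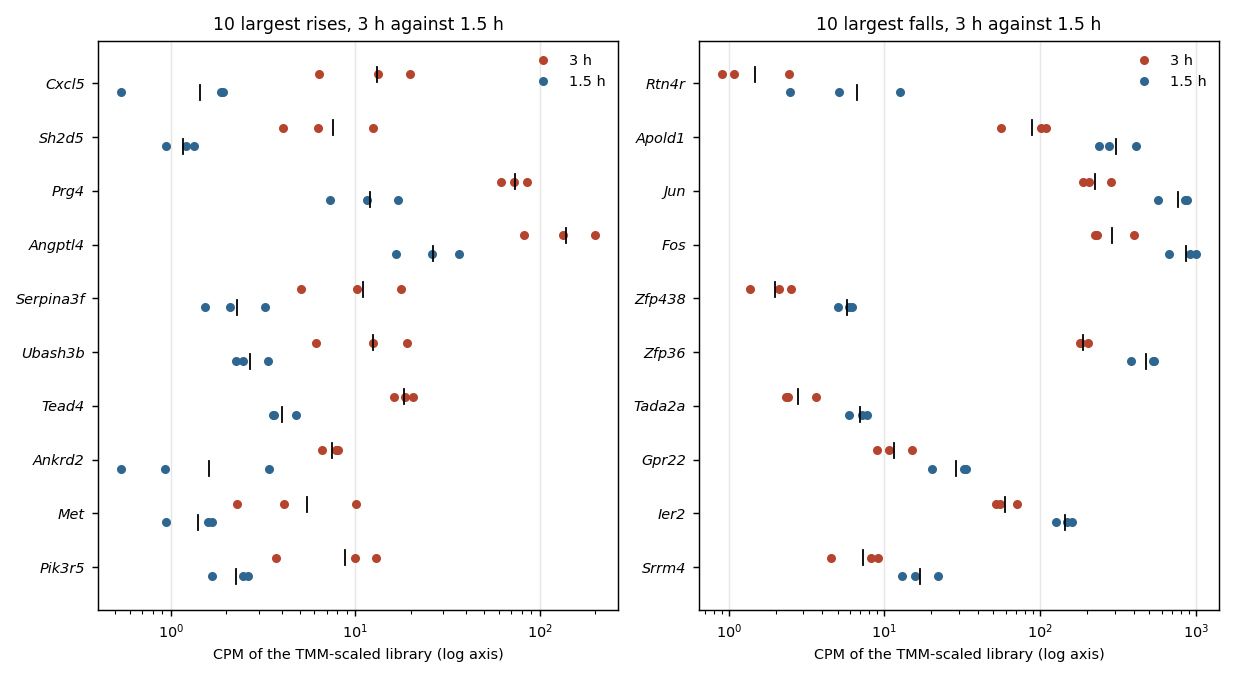
Levels of the 10 largest called rises (left) and falls (right) at 3 h against 1.5 h, on a log axis of CPM of the TMM-scaled library, with 1 point per library and a black bar at the mean of each group. In each row the 3 h points (red) are drawn above the 1.5 h points (blue), and the rises lie to the right of 1.5 h and the falls to its left with no overlap, which the rule for naming them required.

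Several receptors for inflammatory cytokines rose. Of 28 tested cytokine receptors, STAT3 pathway and SOCS genes, 8 rose and 1 fell, beside 5.36% and 3.17% of all tested genes. The median was 0.45. Osmr, the oncostatin M receptor chain, had 182, 111 and 126 CPM at 3 h, against 34.9, 38.7 and 63.3 CPM at 1.5 h (log2 fold change 1.62 ± 0.19, adjusted p = 2.46e-05). Il4ra, the shared receptor chain for interleukins 4 and 13, had 229, 144 and 184 CPM at 3 h, against 43.7, 46.2 and 86.4 CPM at 1.5 h (log2 fold change 1.66 ± 0.22, adjusted p = 0.0001). Il1r1, the signalling receptor of interleukin 1, had 103, 59.6 and 76.99 CPM at 3 h, against 22.8, 28.2 and 37.3 CPM at 1.5 h (log2 fold change 1.44 ± 0.17, adjusted p = 1.84e-05). None of these 3 receptors overlapped between the times, and replicate 1 was the highest 3 h library in each. Interleukin 6 signalling components moved in the same direction by less. Il6ra changed by 0.76 ± 0.19 (adjusted p = 0.0151), the shared chain Il6st by 0.43 ± 0.13 (adjusted p = 0.0458) and Stat3 by 0.48 ± 0.12 (adjusted p = 0.0166). Bcl3, an atypical I-kappaB protein, rose by 1.39 ± 0.34 (adjusted p = 0.0113). Lifr, the receptor chain of leukaemia inhibitory factor, fell to 54.6 ± 6.38 CPM at 3 h, against 76.6 ± 12.7 CPM at 1.5 h (log2 fold change -0.49 ± 0.13, adjusted p = 0.0248). In this list the rises became 4 and 5 with 3 h replicates 1 and 3 left out and 3 and 3 with 1.5 h replicates 1 and 2 left out. Among the calls, Osmr, Il4ra and Il1r1 held throughout. The call of Il6ra was lost with 3 h replicates 1 or 3 or 1.5 h replicates 1 or 2 left out (adjusted p from 0.0504 to 0.0735). Bcl3 missed the threshold with 1.5 h replicates 1 or 2 left out (adjusted p = 0.0754 and 0.0748). The call of Stat3 was lost with 3 h replicate 1 or 1.5 h replicates 1 or 2 left out or with only the 6 libraries in the fit (adjusted p from 0.0602 to 0.109). Il6st missed the threshold with 3 h replicates 1 or 3 or 1.5 h replicates 1 or 2 left out, with library totals alone, with only the 6 libraries in the fit, with no filter on low counts or with the replicate number as a block (adjusted p from 0.0504 to 0.181). The call of Lifr was lost with 3 h replicate 3 or 1.5 h replicate 1 left out, with library totals alone or with only the 6 libraries in the fit (adjusted p from 0.0724 to 0.166).

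Of 28 tested cytokines and chemokines, 5 rose and 0 fell, beside 5.36% and 3.17% of all tested genes, and the median was 0.02. Besides Cxcl5, the rises were those of Cxcl3, Clcf1, Csf1 and Il33. Clcf1, an interleukin 6 family cytokine, had 10.1, 4.36 and 8.32 CPM at 3 h, against 2.004, 2.29 and 2.92 CPM at 1.5 h (log2 fold change 1.66 ± 0.26, adjusted p = 0.000395). Csf1, the growth factor of macrophages, had 113, 68.9 and 66.6 CPM at 3 h, against 36.4, 52.05 and 47.6 CPM at 1.5 h (log2 fold change 0.87 ± 0.18, adjusted p = 0.00394). In both genes every 3 h library exceeded every 1.5 h library. Il33, an alarmin stored in nuclei, had 22.04, 5.25 and 5.72 CPM at 3 h, against 2.74, 2.63 and 5.71 CPM at 1.5 h (log2 fold change 1.59 ± 0.39, adjusted p = 0.0123), so that its mean at 3 h was carried mainly by replicate 1. The chemokine Cxcl3 stayed near the detection floor, at 1.87, 0.666 and 1.04 CPM at 3 h, against 0.0668, 0.405 and 0 CPM at 1.5 h (log2 fold change 2.90 ± 0.86, adjusted p = 0.0373). The cytokine Il6 had 12.5, 17.97 and 23.5 CPM at 3 h, against 21.5, 25.1 and 23.9 CPM at 1.5 h and was not called (log2 fold change -0.39 ± 0.38, adjusted p = 0.59). Cxcl1, a neutrophil chemokine, had 47.9 ± 6.9 CPM at 3 h, against 51.5 ± 5.16 CPM at 1.5 h (log2 fold change -0.11 ± 0.31, adjusted p = 0.876) and was not called either. Ccl2, a monocyte chemokine, had 27.5, 19.8 and 23.5 CPM at 3 h, against 11.2, 14.2 and 9.43 CPM at 1.5 h, with no overlap, but its change missed the threshold (log2 fold change 1.03 ± 0.39, adjusted p = 0.107). Ccl2 passed it with only the 6 libraries in the fit (adjusted p = 0.0146) and with no filter on low counts (adjusted p = 4.78e-08). The count of rises became 3 with 3 h replicate 1 left out and 3 with 1.5 h replicate 1 left out. The call of Il33 was lost with 3 h replicate 1 or 1.5 h replicates 1 or 2 left out or with only the 6 libraries in the fit (adjusted p from 0.0701 to 0.249). Cxcl3 missed the threshold with 3 h replicates 1 or 3 or 1.5 h replicates 1 or 3 left out, with limma-voom or with duplicates removed (adjusted p from 0.0784 to 0.171).

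Several TNF receptor genes rose. Of 25 NF-kappaB subunits, inhibitors and TNF receptors, 6 rose and 0 fell, beside 5.36% and 3.17% of all tested genes. The median was 0.36. Tnfrsf12a, the receptor Fn14 for the cytokine TWEAK, had 133, 112 and 212 CPM at 3 h, against 34.7, 43.2 and 66.9 CPM at 1.5 h (log2 fold change 1.66 ± 0.30, adjusted p = 0.00125). Tnfrsf1a, the main TNF receptor of parenchymal cells, had 133, 76.5 and 94.5 CPM at 3 h, against 46.8, 40.5 and 54.9 CPM at 1.5 h (log2 fold change 1.10 ± 0.17, adjusted p = 0.000346). Tnip2, an A20-binding inhibitor of NF-kappaB, had 32.8, 19.3 and 26.1 CPM at 3 h, against 11.7, 12.1 and 14.9 CPM at 1.5 h (log2 fold change 1.02 ± 0.17, adjusted p = 0.000842). All libraries of 3 h were higher than those of 1.5 h in these 3 genes. Tnfrsf1b (0.83 ± 0.20, adjusted p = 0.0105) and the NF-kappaB subunit Rel (0.59 ± 0.14, adjusted p = 0.0118) rose as well. The call of Tnfrsf1b was lost with 3 h replicate 1 left out (adjusted p = 0.0671). Rel missed the threshold with 3 h replicate 1 or 1.5 h replicate 1 left out or with only the 6 libraries in the fit (adjusted p = 0.0555, 0.0886 and 0.0554). Without 3 h replicate 1 the list held 3 rises.

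Among 16 adhesion and recruitment genes 4 rose and 0 fell, beside 5.36% and 3.17% of all tested genes, with a median of 0.28. Selp, which encodes P-selectin, the endothelial and platelet molecule that lets leukocytes roll, had 14.996, 17.1 and 17.8 CPM at 3 h, against 3.27, 7.62 and 5.31 CPM at 1.5 h (log2 fold change 1.62 ± 0.32, adjusted p = 0.00265). Its 3 h libraries agreed closely and all exceeded 1.5 h, and sham hearts had 0.166 ± 0.105 CPM. Icam1, an endothelial ligand of leukocyte integrins, had 69.4, 72.3 and 60.6 CPM at 3 h, against 33.1, 48.3 and 46.5 CPM at 1.5 h (log2 fold change 0.66 ± 0.20, adjusted p = 0.0378). Its call was lost without any 1 of the 6 libraries or with library totals alone (adjusted p from 0.0536 to 0.194). The endothelial adhesion genes Mcam and Cdh5 changed by 0.54 ± 0.14 (adjusted p = 0.0176) and 0.40 ± 0.11 (adjusted p = 0.0285). The call of Mcam was lost with 3 h replicates 1 or 3 or 1.5 h replicates 1 or 2 left out or with only the 6 libraries in the fit (adjusted p from 0.0512 to 0.1). Cdh5 missed the threshold with 3 h replicates 1 or 3 or 1.5 h replicates 1 or 2 left out, with library totals alone, with only the 6 libraries in the fit or with no filter on low counts (adjusted p from 0.0713 to 0.13). The number of rises became 1 and 1 with 3 h replicates 1 and 3 left out, 1 and 1 with 1.5 h replicates 1 and 2 left out and 2 with library totals alone. Of 12 endothelial markers, 1 (Cdh5) rose, 0 fell, the median was 0.26, and the summed levels were 2434, 2231 and 2611 CPM at 3 h, against 2153, 1742 and 1943 CPM at 1.5 h. The part of this difference in the result was not tested, and in whole tissue more cells of a type and more RNA per cell cannot be told apart.

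Chaperones of the endoplasmic reticulum had the largest share of called rises among the 29 lists. Of 22 tested members 12 were higher and 0 lower, beside 5.36% and 3.17% of all tested genes, with a median of 0.51. These proteins fold secreted and membrane proteins, and their genes are known to respond to unfolded protein through Atf6 and Xbp1. Many of their promoters carry an endoplasmic reticulum stress response element, CCAAT and CCACG separated by 9 bases. The element was searched on both strands from 250 bases before to 50 after the start of each gene in RefSeq promoters of GRCm38.p6. It was found in 6 of the 10 called members that had a promoter in the table (60%), namely Hspa5, Hsp90b1, Calr, Dnajc3, Creld2 and Syvn1, and in 2 of 9 members not called (22.2%), Canx and Pdia6. Over all 27025 promoters, 37 (0.137%) held it. The element was chosen for the search after the values had been seen, and a match describes the letters, not a bound site. Genes of this list belong to the class known to carry the element, so a share above that of all promoters is no independent result. Whether the element had a part in the rises was not tested. The promoters of the called member with the largest rise and of 3 abundant called chaperones are shown because they carry the element at different distances and on both strands, with the element in capitals (on the reverse strand it reads CGTGG, 9 bases, ATTGG).
Creld2, chr15:88819396-88819695, forward strand, element from 126 bases upstream of the start: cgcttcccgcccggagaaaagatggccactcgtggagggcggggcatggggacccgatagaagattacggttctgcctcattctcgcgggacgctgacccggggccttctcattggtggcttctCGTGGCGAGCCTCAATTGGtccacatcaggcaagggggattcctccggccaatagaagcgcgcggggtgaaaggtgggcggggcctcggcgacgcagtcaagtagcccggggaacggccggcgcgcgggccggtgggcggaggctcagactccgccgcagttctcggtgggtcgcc
Hspa5, chr2:34771840-34772139, forward strand, element from 65 bases upstream: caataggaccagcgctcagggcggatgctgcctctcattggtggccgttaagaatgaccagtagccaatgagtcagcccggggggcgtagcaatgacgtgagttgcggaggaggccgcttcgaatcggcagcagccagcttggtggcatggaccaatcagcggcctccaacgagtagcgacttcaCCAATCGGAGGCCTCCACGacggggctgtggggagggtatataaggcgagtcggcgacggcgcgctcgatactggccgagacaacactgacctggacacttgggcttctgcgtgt
Hsp90b1, chr10:86705395-86705694, reverse strand, elements from 212 and 107 bases upstream: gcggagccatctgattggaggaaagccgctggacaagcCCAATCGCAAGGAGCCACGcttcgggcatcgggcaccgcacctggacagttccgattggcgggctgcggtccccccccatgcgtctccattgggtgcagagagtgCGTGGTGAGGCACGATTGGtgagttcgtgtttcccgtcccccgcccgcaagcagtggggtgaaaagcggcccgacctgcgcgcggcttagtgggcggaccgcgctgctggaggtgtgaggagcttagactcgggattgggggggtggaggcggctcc
Calr, chr8:84846882-84847181, reverse strand, element from 162 bases upstream: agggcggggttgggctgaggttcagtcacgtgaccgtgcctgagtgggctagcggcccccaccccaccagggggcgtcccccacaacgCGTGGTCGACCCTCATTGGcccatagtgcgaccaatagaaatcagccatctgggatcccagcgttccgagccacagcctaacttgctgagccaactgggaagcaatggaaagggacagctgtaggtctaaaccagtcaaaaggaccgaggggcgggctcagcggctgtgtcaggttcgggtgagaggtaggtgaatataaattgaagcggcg

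Creld2, a secreted resident of the endoplasmic reticulum, had 29.8, 10.9 and 39.3 CPM at 3 h, against 7.61, 8.697 and 10.3 CPM at 1.5 h (log2 fold change 1.59 ± 0.28, adjusted p = 0.00115). Hyou1, a large chaperone that serves Hspa5, had 122, 48.1 and 167 CPM at 3 h, against 31.2, 36.7 and 44.4 CPM at 1.5 h (log2 fold change 1.59 ± 0.27, adjusted p = 0.000832). Manf, a neurotrophic factor retained by the chaperones, had 62.6, 39.6 and 71.5 CPM at 3 h, against 19.8, 24.2 and 32.6 CPM at 1.5 h (log2 fold change 1.18 ± 0.25, adjusted p = 0.00443). The 3 h libraries all exceeded the 1.5 h libraries in these genes, with replicate 2 the lowest by a wide margin in Creld2 and Hyou1. Hspa5, the main chaperone known as BiP, had 1157, 962 and 1297 CPM at 3 h, against 642, 666 and 843 CPM at 1.5 h (log2 fold change 0.67 ± 0.16, adjusted p = 0.0131). Hsp90b1, the HSP90 of this compartment, had 389.6 ± 86.1 CPM at 3 h, against 245 ± 36.5 CPM at 1.5 h (log2 fold change 0.67 ± 0.18, adjusted p = 0.0222). Calr, the lectin chaperone calreticulin, had 393 ± 47.97 CPM at 3 h, against 289 ± 56.2 CPM at 1.5 h (log2 fold change 0.44 ± 0.13, adjusted p = 0.0284). Xbp1, the transcription factor that is spliced under unfolded protein stress, had 124, 99.4 and 120.03 CPM at 3 h, against 59.6, 62.97 and 85.4 CPM at 1.5 h (log2 fold change 0.72 ± 0.15, adjusted p = 0.00428). It too was higher in every 3 h library. The co-chaperones Dnajc3 (0.60 ± 0.13, adjusted p = 0.00494) and Dnajb11 (0.57 ± 0.11, adjusted p = 0.00171), the disulfide isomerases Pdia4 (0.99 ± 0.22, adjusted p = 0.00621) and Pdia3 (0.45 ± 0.14, adjusted p = 0.0465) and Syvn1, a ubiquitin ligase of degradation from this compartment (0.999 ± 0.22, adjusted p = 0.0066), rose as well. The number of rises was 6 with 3 h replicate 3 left out. The calls of Creld2, Hyou1, Manf, Xbp1, Dnajc3 and Dnajb11 held throughout. The call of Hspa5 was lost with 3 h replicate 3 or 1.5 h replicates 1 or 2 left out (adjusted p = 0.0868, 0.0754 and 0.0747). Hsp90b1 missed the threshold with 3 h replicates 1 or 3 or 1.5 h replicates 1 or 2 left out or with only the 6 libraries in the fit (adjusted p from 0.0543 to 0.142). The call of Calr was lost with 3 h replicates 1 or 3 or 1.5 h replicates 1 or 2 left out or with only the 6 libraries in the fit (adjusted p from 0.105 to 0.154). Pdia4 missed the threshold with 3 h replicate 3 left out (adjusted p = 0.0551). The call of Pdia3 was lost with 3 h replicates 1 or 3 or 1.5 h replicates 1, 2 or 3 left out, with only the 6 libraries in the fit or with the replicate number as a block (adjusted p from 0.0597 to 0.183). Syvn1 missed the threshold with 3 h replicate 3 left out or with only the 6 libraries in the fit (adjusted p = 0.0707 and 0.0803).

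**Figure D3:**
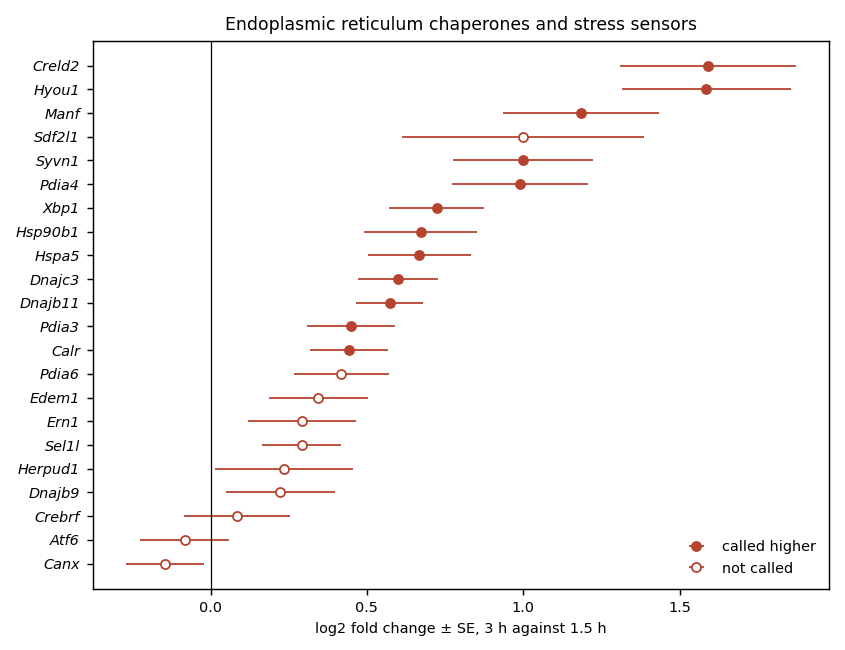
Log2 fold change ± SE at 3 h against 1.5 h of the 22 tested endoplasmic reticulum chaperones and stress sensors, with filled points for the 12 called members and open points for the 10 not called. The called members run from 0.44 in Calr to 1.59 in Creld2, and no member is called lower.

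Of 32 heat shock proteins and co-chaperones, 1 rose and 0 fell, beside 5.36% and 3.17% of all tested genes, and the median was -0.00. With no filter on low counts 3 fell. The rise was of Hspb7, a small heat shock protein of heart muscle, with 1906, 2584 and 2477 CPM at 3 h, against 1533, 1524 and 1639 CPM at 1.5 h (log2 fold change 0.57 ± 0.12, adjusted p = 0.00525). Hspb1 had 954 ± 109 CPM at 3 h, against 712 ± 204 CPM at 1.5 h and was not called (log2 fold change 0.42 ± 0.24, adjusted p = 0.296). Hspb7 was higher in each 3 h library, and its call was lost with only the 6 libraries in the fit (adjusted p = 0.0557) and under no other alternative run. The proteasome list of 38 subunits held 1 rise, Psmd4 (0.33 ± 0.09, adjusted p = 0.0328), and a median of 0.06. That call was lost with 3 h replicates 1, 2 or 3 or 1.5 h replicates 1 or 2 left out, with only the 6 libraries in the fit or with no filter on low counts (adjusted p from 0.0526 to 0.221).

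In the integrated stress response and amino acid supply list, 3 of 28 rose and 0 fell, beside 5.36% and 3.17% of all tested genes. The median was 0.34. Atf4, its central transcription factor, had 184, 149 and 182 CPM at 3 h, against 104, 84.5 and 110.4 CPM at 1.5 h (log2 fold change 0.78 ± 0.19, adjusted p = 0.0128), with all 3 h libraries higher. Ddit3, the factor CHOP, had 39.3, 13.2 and 24.1 CPM at 3 h, against 18.1, 13.4 and 17.4 CPM at 1.5 h and was not called (log2 fold change 0.65 ± 0.26, adjusted p = 0.122). Ddit3 passed the threshold with no filter on low counts (adjusted p = 0.00592) and with 3 h replicate 2 left out (adjusted p = 0.00794). The count of rises became 0 and 0 with 3 h replicates 1 and 3 left out, 1 and 1 with 1.5 h replicates 1 and 2 left out, 1 with limma-voom and 6 with no filter on low counts, and the call of Atf4 was lost with 3 h replicates 1 or 3 or 1.5 h replicate 2 left out (adjusted p = 0.0504, 0.057 and 0.0842). Of 32 genes of NRF2, glutathione and iron metabolism 6 rose and 0 fell, beside 5.36% and 3.17% of all tested genes. The median was 0.06. With no filter on low counts 4 fell. Txnrd1, the cytosolic thioredoxin reductase, had 221, 160.5 and 184 CPM at 3 h, against 88.3, 78.3 and 95.7 CPM at 1.5 h (log2 fold change 1.11 ± 0.14, adjusted p = 4.86e-05), and each 3 h library exceeded each 1.5 h library. Hmox1, the heme-degrading enzyme, had 219.7, 42.2 and 91.4 CPM at 3 h, against 24.2, 30.3 and 56.6 CPM at 1.5 h (log2 fold change 1.67 ± 0.41, adjusted p = 0.0122), a mean set largely by replicate 1, while replicate 2 lay within the 1.5 h range. Slc7a11, the cystine transporter, was near the floor at 2.05, 0.887 and 1.82 CPM at 3 h, against 0.267, 0.539 and 0.332 CPM at 1.5 h (log2 fold change 2.06 ± 0.55, adjusted p = 0.0213). Srxn1, which reactivates peroxiredoxins, changed by 0.78 ± 0.18 (adjusted p = 0.00793), Gss, glutathione synthetase, by 0.64 ± 0.15 (adjusted p = 0.00719), and Acsl4, which activates arachidonic acid for membrane lipids, by 0.48 ± 0.13 (adjusted p = 0.021). The number of rises was 2 with 3 h replicate 1 left out, 3 with 1.5 h replicate 2 left out and 3 with only the 6 libraries in the fit. The call of Hmox1 was lost with 3 h replicate 1 or 1.5 h replicates 1 or 2 left out or with only the 6 libraries in the fit (adjusted p from 0.0724 to 0.171). Slc7a11 missed the threshold with 3 h replicates 1 or 3 or 1.5 h replicates 1 or 3 left out or with limma-voom (adjusted p from 0.0637 to 0.0942). The call of Srxn1 was lost with 3 h replicate 1 or 1.5 h replicate 2 left out (adjusted p = 0.0573 and 0.0718). Gss missed the threshold with only the 6 libraries in the fit (adjusted p = 0.0537). The call of Acsl4 was lost with 3 h replicates 1 or 3 or 1.5 h replicates 2 or 3 left out or with only the 6 libraries in the fit (adjusted p from 0.054 to 0.126).

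Metallothioneins, acute phase and glucocorticoid-induced genes rose in 5 of 21 tested members and fell in 0, beside 5.36% and 3.17% of all tested genes. The median was 0.33. Mt2, a zinc-binding metallothionein, had 959, 673 and 643 CPM at 3 h, against 290.2, 194 and 323 CPM at 1.5 h (log2 fold change 1.49 ± 0.36, adjusted p = 0.0105). Its relative Mt1 had 1173, 1207 and 847 CPM at 3 h, against 725, 529 and 774 CPM at 1.5 h without a call (log2 fold change 0.67 ± 0.25, adjusted p = 0.104). Mt1 passed the threshold with no filter on low counts (adjusted p = 0.000203). Both genes were higher in all 3 h libraries. Serpina3n, an acute phase protease inhibitor, had 97.1, 26.3 and 40.6 CPM at 3 h, against 13.96, 13.6 and 23.8 CPM at 1.5 h (log2 fold change 1.68 ± 0.30, adjusted p = 0.00115). Lcn2, an iron-trapping acute phase protein that neutrophils also carry, had 67.5, 27.4 and 27.8 CPM at 3 h, against 12.1, 19.96 and 18.3 CPM at 1.5 h (log2 fold change 1.29 ± 0.37, adjusted p = 0.0312). Replicate 1 was by far the highest 3 h library in both. The summed level of 16 neutrophil markers, Lcn2 among them, was 118, 52.7 and 86.7 CPM at 3 h, against 36.5, 60.1 and 44.3 CPM at 1.5 h, and its part in these results was not tested. Of these markers only Ly6g was at 0 in all libraries of a time, 1.5 h. Its defining markers S100a8 (4.13 ± 1.92 CPM at 3 h, against 2.82 ± 2.13 CPM at 1.5 h) and S100a9 (5.06 ± 2.27 CPM at 3 h, against 3.56 ± 2.295 CPM at 1.5 h) overlapped between the times. The count of rises became 2 with 3 h replicate 1 left out, 3 and 2 with 1.5 h replicates 1 and 2 left out and 8 with no filter on low counts. The call of Mt2 was lost with 3 h replicate 1 or 1.5 h replicate 2 left out (adjusted p = 0.0536 and 0.0749). Lcn2 missed the threshold with 3 h replicate 1 or 1.5 h replicates 1, 2 or 3 left out or with DESeq2 (adjusted p from 0.0601 to 0.262).

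Genes of ribosome assembly rose without a fall, in 9 of 36 tested members, beside 5.36% of all tested genes, with a median of 0.30. Ppan, needed for large subunit maturation, had 20.4, 10.7 and 16.3 CPM at 3 h, against 5.21, 4.99 and 7.17 CPM at 1.5 h (log2 fold change 1.45 ± 0.21, adjusted p = 0.000174). Rrp12, an export and processing factor of pre-ribosomes, had 59.1, 52.7 and 70.7 CPM at 3 h, against 27.1, 24.2 and 35.2 CPM at 1.5 h (log2 fold change 1.08 ± 0.18, adjusted p = 0.000754). All 3 h libraries stood above 1.5 h in both genes. Nop56, a core protein of box C/D small nucleolar particles, had 35.7 ± 11.4 CPM at 3 h, against 22.5 ± 1.19 CPM at 1.5 h (log2 fold change 0.67 ± 0.16, adjusted p = 0.0117). Gar1, of the box H/ACA particles, had 8.13 ± 3.32 CPM at 3 h, against 4.39 ± 0.557 CPM at 1.5 h (log2 fold change 0.90 ± 0.28, adjusted p = 0.0441). Myc, a transcription factor that drives such genes, was 63.7, 81.6 and 68.3 CPM at 3 h, against 46.02, 35.5 and 64.2 CPM at 1.5 h and not called (log2 fold change 0.55 ± 0.29, adjusted p = 0.263). Myc passed the threshold with no filter on low counts (adjusted p = 0.00564). The number of rises became 2, 15 and 3 with 3 h replicates 1, 2 and 3 left out, 4 and 2 with 1.5 h replicates 1 and 2 left out, 5 with library totals alone and 3 with only the 6 libraries in the fit. The call of Nop56 was lost with 3 h replicates 1 or 3 or 1.5 h replicate 2 left out or with only the 6 libraries in the fit (adjusted p from 0.0523 to 0.11). Gar1 missed the threshold with 3 h replicates 1 or 3 or 1.5 h replicates 1, 2 or 3 left out, with library totals alone, with only the 6 libraries in the fit, with limma-voom, with duplicates removed or with the replicate number as a block (adjusted p from 0.0508 to 0.215).

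Stress and stretch genes of cardiomyocytes rose in 9 of 25 tested members and fell in 1, beside 5.36% and 3.17% of all tested genes. The median was 0.58. Ankrd1, the cardiac ankyrin repeat protein, had 1372, 2092 and 1950.5 CPM at 3 h, against 619, 617 and 1044 CPM at 1.5 h (log2 fold change 1.25 ± 0.22, adjusted p = 0.00105). Hbegf, the heparin-binding ligand of the EGF receptor, had 183, 129 and 139.6 CPM at 3 h, against 43.6, 38.97 and 83.0 CPM at 1.5 h (log2 fold change 1.45 ± 0.32, adjusted p = 0.00584). Both genes were higher in all libraries of 3 h. Flnc, an actin crosslinker of Z-discs, had 1974 ± 626 CPM at 3 h, against 769 ± 289 CPM at 1.5 h (log2 fold change 1.36 ± 0.38, adjusted p = 0.0276). Xirp1, an actin-binding protein of intercalated discs, had 1883 ± 613 CPM at 3 h, against 827 ± 341 CPM at 1.5 h (log2 fold change 1.19 ± 0.30, adjusted p = 0.0148). Nppa, the atrial natriuretic peptide, had 54.9, 47.996 and 62.6 CPM at 3 h, against 29.4, 23.5 and 22.9 CPM at 1.5 h (log2 fold change 1.13 ± 0.33, adjusted p = 0.0337), while Nppb, its B-type relative, had 192, 599 and 495 CPM at 3 h, against 129, 284 and 299 CPM at 1.5 h and was not called (log2 fold change 0.85 ± 0.37, adjusted p = 0.16). Nppb passed the threshold with no filter on low counts (adjusted p = 4.20e-07) and with 3 h replicate 1 left out (adjusted p = 0.0489). Fhl1 (0.92 ± 0.24, adjusted p = 0.0212), Nrap (0.78 ± 0.25, adjusted p = 0.0478) and Des, the muscle intermediate filament (0.58 ± 0.14, adjusted p = 0.0101), rose too. Fbxo32, the muscle ubiquitin ligase atrogin-1, fell to 113 ± 32.4 CPM at 3 h, against 184 ± 24.3 CPM at 1.5 h (log2 fold change -0.70 ± 0.19, adjusted p = 0.0252). Ankrd1, Flnc, Xirp1 and Nppb were lowest in 3 h replicate 1. Ventricular cardiomyocyte markers, of which 0 of 15 were called and the median was 0.07, were lowest in the same library, at 87436 CPM, and their part in the result was not tested. The count of rises was 3 with 3 h replicate 3 left out, 4 and 3 with 1.5 h replicates 1 and 2 left out and 14 with no filter on low counts. The call of Flnc was lost with 3 h replicate 3 or 1.5 h replicates 1 or 2 left out (adjusted p = 0.133, 0.134 and 0.118). Xirp1 missed the threshold with 3 h replicate 3 or 1.5 h replicates 1 or 2 left out (adjusted p = 0.0761, 0.0932 and 0.0791). The call of Nppa was lost with 3 h replicates 1 or 3 or 1.5 h replicates 1, 2 or 3 left out or with library totals alone (adjusted p from 0.0569 to 0.126). Fhl1 missed the threshold with 3 h replicate 3 or 1.5 h replicates 1, 2 or 3 left out (adjusted p from 0.0511 to 0.147). The call of Nrap was lost with 3 h replicates 2 or 3 or 1.5 h replicates 1 or 2 left out, with library totals alone, with only the 6 libraries in the fit or with limma-voom (adjusted p from 0.0551 to 0.197). Des missed the threshold with 3 h replicate 3 or 1.5 h replicate 2 left out or with only the 6 libraries in the fit (adjusted p = 0.055, 0.0662 and 0.055). The call of Fbxo32 was lost with 3 h replicate 3 or 1.5 h replicate 1 left out, with library totals alone or with only the 6 libraries in the fit (adjusted p from 0.0563 to 0.165).

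Matrix genes rose in 8 of 33 tested members and fell in 0, beside 5.36% and 3.17% of all tested genes, with a median of 0.45. Adamts9, a metalloprotease of proteoglycans, had 130.4, 137 and 123 CPM at 3 h, against 62.4, 55.4 and 67.3 CPM at 1.5 h (log2 fold change 1.08 ± 0.18, adjusted p = 0.000832), and its libraries were tight within each time. Thbs4, a matricellular thrombospondin, had 11.7, 4.29 and 7.803 CPM at 3 h, against 3.01, 2.02 and 1.79 CPM at 1.5 h (log2 fold change 1.81 ± 0.37, adjusted p = 0.00338). Timp1, an inhibitor of metalloproteinases, had 15.7, 5.92 and 9.17 CPM at 3 h, against 4.14, 3.64 and 4.38 CPM at 1.5 h (log2 fold change 1.35 ± 0.30, adjusted p = 0.00627). In all of these genes the times did not overlap. The basement membrane collagens Col4a1 and Col4a2, which are transcribed from a shared promoter, changed by 0.69 ± 0.19 (adjusted p = 0.0257) and 0.65 ± 0.18 (adjusted p = 0.0227). The collagen crosslinker Lox (0.92 ± 0.20, adjusted p = 0.00491) and the membrane protease Mmp14 (0.88 ± 0.20, adjusted p = 0.00846) rose as well. Fibroblast markers, with 0 of 12 called and a median of 0.04, summed to 2852, 2362 and 2586 CPM at 3 h and 2470, 2281 and 2685 CPM at 1.5 h. The number of rises became 3 and 5 with 3 h replicates 1 and 3 left out, 5 and 5 with 1.5 h replicates 1 and 2 left out, 5 with library totals alone and 13 with no filter on low counts. The call of Timp1 was lost with 3 h replicate 1 left out (adjusted p = 0.0741). Col4a1 missed the threshold with 3 h replicates 1 or 3 or 1.5 h replicates 1 or 2 left out or with library totals alone (adjusted p from 0.0735 to 0.122). The call of Col4a2 was lost with 3 h replicates 1 or 3 or 1.5 h replicates 1 or 2 left out or with library totals alone (adjusted p from 0.0669 to 0.122). Lox missed the threshold with only the 6 libraries in the fit (adjusted p = 0.0607). The call of Mmp14 was lost with 3 h replicate 1 or 1.5 h replicate 1 left out (adjusted p = 0.0719 and 0.0566).

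Of 29 ligands and receptors of the EGF, TGF-beta and VEGF families, 5 rose and 1 fell, beside 5.36% and 3.17% of all tested genes. The median was 0.12. Ereg, which encodes the EGF receptor ligand epiregulin, had 5.96, 3.11 and 4.62 CPM at 3 h, against 0.735, 1.21 and 0.465 CPM at 1.5 h (log2 fold change 2.50 ± 0.53, adjusted p = 0.00472). Inhbb, a subunit of activin B, had 40.5, 28.4 and 31.3 CPM at 3 h, against 16.03, 6.34 and 11.7 CPM at 1.5 h (log2 fold change 1.56 ± 0.39, adjusted p = 0.0158), and Bmp4 had 37.5, 14.9 and 19.1 CPM at 3 h, against 7.61, 8.09 and 11.1 CPM at 1.5 h (log2 fold change 1.42 ± 0.30, adjusted p = 0.00453). Every 3 h library exceeded every 1.5 h library in these 3 ligands. Tgfb2 changed by 0.85 ± 0.21 (adjusted p = 0.0123). Gdf15, a stress-induced member of the TGF-beta family, had 5.15 ± 2.16 CPM at 3 h, against 4.01 ± 1.52 CPM at 1.5 h and was not called (log2 fold change 0.35 ± 0.47, adjusted p = 0.703). Angpt1, which stabilises vessels through the receptor Tek, fell to 21.2 ± 4.55 CPM at 3 h, against 45.4 ± 7.38 CPM at 1.5 h (log2 fold change -1.10 ± 0.25, adjusted p = 0.0066), below the 55.3 ± 9.91 CPM of sham hearts. The number of rises was 3 with 3 h replicate 1 left out and 3 with 1.5 h replicate 2 left out. The call of Inhbb was lost with 3 h replicate 1 or 1.5 h replicate 2 left out (adjusted p = 0.0631 and 0.101). Bmp4 missed the threshold with 3 h replicate 1 left out (adjusted p = 0.0574). The call of Tgfb2 was lost with 3 h replicate 3 or 1.5 h replicate 2 left out (adjusted p = 0.0578 and 0.0769). Angpt1 missed the threshold with 3 h replicate 3 left out (adjusted p = 0.0566).

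**Figure D4:**
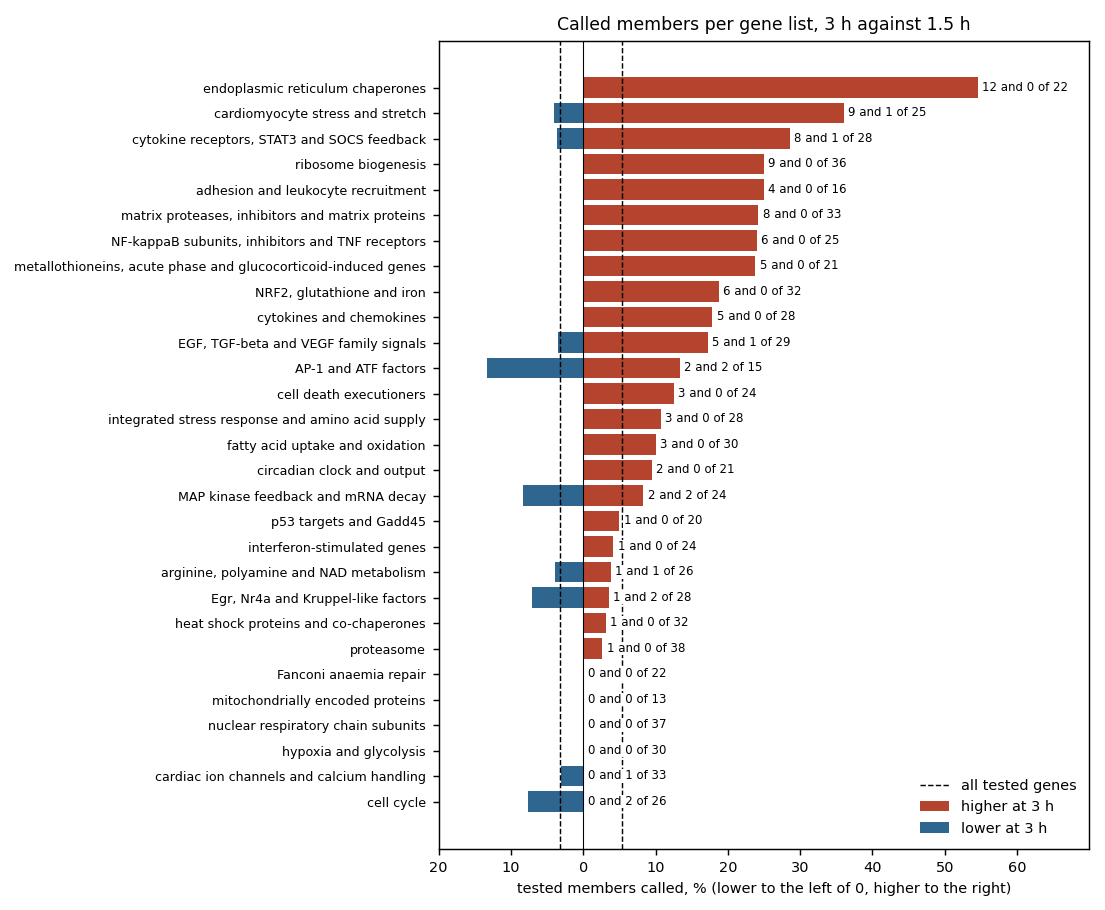
Share of the tested members of 29 gene lists called higher (red, to the right) or lower (blue, to the left) at 3 h against 1.5 h, in percent, with the numbers called higher and lower of those tested beside each bar. Dashed lines mark the shares over all tested genes, 5.36% higher and 3.17% lower, and the endoplasmic reticulum chaperones reach 12 of 22.

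Genes of energy metabolism were mostly not called, where 5.36% of all tested genes rose and 3.17% fell. No gene of 30 in hypoxia and glycolysis, of 37 nuclear respiratory chain subunits or of 13 mitochondrially encoded proteins was called, with medians of 0.10, 0.07 and -0.18. In hypoxia and glycolysis, rises numbered 1 and 1 with 3 h replicates 1 and 2 left out, 1 and 1 with 1.5 h replicates 2 and 3 left out, 1 with library totals alone, 2 with DESeq2, 6 with no filter on low counts, 1 with the replicate number as a block and 1 with multiply mapped reads, and falls 2 with 3 h replicate 2 left out, 1 with 1.5 h replicate 3 left out, 1 with limma-voom, 1 with DESeq2, 2 with no filter on low counts and 1 with duplicates removed. Among 33 ion channel and calcium handling genes, 1 fell, Kcnj3, a subunit of the acetylcholine-activated potassium channel, at 31.7 ± 7.503 CPM at 3 h, against 52.3 ± 12.9 CPM at 1.5 h (log2 fold change -0.72 ± 0.19, adjusted p = 0.017). The falls numbered 0, 3 and 0 with 3 h replicates 1, 2 and 3 left out, 0 and 0 with 1.5 h replicates 1 and 2 left out, 0 with only the 6 libraries in the fit and 3 with no filter on low counts. Of 30 genes of fatty acid use, 3 rose, Angptl4 among them, and the median was 0.00. These rises numbered 1 with 3 h replicate 3 left out, 1 and 1 with 1.5 h replicates 1 and 2 left out and 5 with no filter on low counts. Ppargc1a, a coactivator of mitochondrial genes, had 211, 439 and 343 CPM at 3 h, against 141, 179 and 217 CPM at 1.5 h (log2 fold change 0.88 ± 0.24, adjusted p = 0.0242), with an overlap of 1 library. The enzymes of arginine and NAD metabolism held 1 rise and 1 fall among 26 genes, close to the shares of all tested genes. Both were of nitric oxide synthases. Nos3, the endothelial enzyme, had 74.8, 93.6 and 93.7 CPM at 3 h, against 36.9, 42.3 and 49.3 CPM at 1.5 h (log2 fold change 1.03 ± 0.20, adjusted p = 0.00276). Nos2, the inducible enzyme, had 8.25, 5.84 and 7.48 CPM at 3 h, against 12.9, 12.8 and 15.7 CPM at 1.5 h (log2 fold change -0.94 ± 0.19, adjusted p = 0.00284). These isoforms moved in opposite directions, each with no overlap between the times and each in every alternative. The call of Kcnj3 was lost with 3 h replicates 1 or 3 or 1.5 h replicates 1 or 2 left out or with only the 6 libraries in the fit (adjusted p from 0.0602 to 0.124). Ppargc1a missed the threshold with 3 h replicates 2 or 3 or 1.5 h replicates 1 or 2 left out or with only the 6 libraries in the fit (adjusted p from 0.0609 to 0.129).

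In the circadian list 2 of 21 genes rose and 0 fell, beside 5.36% and 3.17% of all tested genes, with a median of -0.07. With no filter on low counts 5 rose and 3 fell. The repressors concerned were Cry1, at 31.7, 19.4 and 27.9 CPM at 3 h, against 10.1, 9.44 and 9.63 CPM at 1.5 h (log2 fold change 1.44 ± 0.21, adjusted p = 0.000187), and Bhlhe41, at 80.4, 78.8 and 72.2 CPM at 3 h, against 31.1, 26.2 and 44.1 CPM at 1.5 h (log2 fold change 1.19 ± 0.22, adjusted p = 0.00167). Both were higher in each 3 h library, and both calls held in every alternative. The clock gene Per2 varied widely within each time (64.1, 20.6 and 33.4 CPM at 3 h, against 43.1, 10.04 and 26.9 CPM at 1.5 h) and was not called (log2 fold change 0.56 ± 0.49, adjusted p = 0.524). Per2 passed the threshold with no filter on low counts (adjusted p = 0.0105). Whether the hour of tissue collection differed between the groups is not given in the labels.

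The death receptor gene Fas and the caspase gene Casp4 were among the genes that rose. Fas, a death receptor and p53 target, had 54.7, 42.2 and 46.6 CPM at 3 h, against 22.4, 20.2 and 25.03 CPM at 1.5 h (log2 fold change 1.08 ± 0.16, adjusted p = 0.000206), with no overlap. It was the only rise among 20 p53 targets (median 0.04), where 5.36% of all tested genes rose. Of 24 cell death executioners, 3 (12.5%) rose, beside 5.36% of all tested genes, and the median was 0.20. Ripk3, the kinase of necroptosis, had 10.8, 7.54 and 9.69 CPM at 3 h, against 4.61, 2.76 and 5.71 CPM at 1.5 h (log2 fold change 1.10 ± 0.25, adjusted p = 0.0071). Casp4, an inflammatory caspase, had 14.2 ± 5.44 CPM at 3 h, against 7.35 ± 1.76 CPM at 1.5 h (log2 fold change 0.96 ± 0.27, adjusted p = 0.0291). Cflar, an inhibitor of caspase 8, changed by 0.51 ± 0.16 (adjusted p = 0.0452). Among 24 interferon-stimulated genes, Stat2 rose alone (53.6 ± 17.7 CPM at 3 h, against 30.9 ± 5.55 CPM at 1.5 h, log2 fold change 0.80 ± 0.22, adjusted p = 0.0269; list median 0.22). In the cell cycle list 0 of 26 rose and 2 fell, beside 5.36% and 3.17% of all tested genes, with a median of -0.10. The falls were of the replicative helicase subunits Mcm2 (5.44 ± 1.104 CPM at 3 h, against 9.18 ± 1.35 CPM at 1.5 h, log2 fold change -0.76 ± 0.20, adjusted p = 0.02) and Mcm5 (2.29 ± 0.9605 CPM at 3 h, against 4.34 ± 1.25 CPM at 1.5 h, log2 fold change -0.91 ± 0.25, adjusted p = 0.0269). The count of cell death rises became 1, 5 and 1 with 3 h replicates 1, 2 and 3 left out, 1 and 0 with 1.5 h replicates 1 and 2 left out, 5 with DESeq2, 6 with no filter on low counts and 5 with duplicates removed. The call of Ripk3 was lost with 1.5 h replicate 2 left out (adjusted p = 0.0638). Casp4 missed the threshold with 3 h replicates 1 or 3 or 1.5 h replicates 1 or 2 left out or with only the 6 libraries in the fit (adjusted p from 0.055 to 0.212). The call of Cflar was lost with 3 h replicates 1 or 3 or 1.5 h replicates 1, 2 or 3 left out, with library totals alone, with only the 6 libraries in the fit, with limma-voom or with the replicate number as a block (adjusted p from 0.0517 to 0.182). Stat2 missed the threshold with 3 h replicates 1 or 3 or 1.5 h replicates 1 or 2 left out, with library totals alone or with only the 6 libraries in the fit (adjusted p from 0.059 to 0.193). Cell cycle falls numbered 4, 1 and 0 with 3 h replicates 1, 2 and 3 left out and 0 and 0 with 1.5 h replicates 1 and 3 left out. They numbered 0 with only the 6 libraries in the fit and 1 with library totals alone. The call of Mcm2 was lost with 3 h replicate 3 or 1.5 h replicates 1 or 3 left out or with only the 6 libraries in the fit (adjusted p from 0.0611 to 0.131). Mcm5 missed the threshold with 3 h replicates 2 or 3 or 1.5 h replicates 1 or 3 left out, with library totals alone or with only the 6 libraries in the fit (adjusted p from 0.0649 to 0.157).

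Fancd2, a central protein of Fanconi anaemia DNA repair, was low at both times, at 1.75, 0.3698 and 0.3901 CPM at 3 h, against 1.94, 0.405 and 0.531 CPM at 1.5 h (log2 fold change -0.16 ± 0.69, adjusted p = 0.92). Replicate 1 was the highest library in each group, and the libraries overlapped. None of the 22 tested genes of the Fanconi anaemia repair list was called in the main fit, and their median was -0.20. With DESeq2 1 rose and 1 fell, with 3 h replicate 2 left out 1 rose, and with multiply mapped reads included 1 fell. Xrcc2, a DNA repair gene that the list does not hold, was called lower (log2 fold change -1.01 ± 0.20, adjusted p = 0.00331). The absence of calls thus describes the listed genes only, and no alternative run is given for Xrcc2.

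Over 7 marker lists of blood and tissue leukocytes, platelets and red cells, 5 of 61 tested markers (8.20%) were called in either direction, beside 8.53% of all tested genes. Of 15 tested neutrophil markers 1 rose (Lcn2), 0 fell and the median was 0.72. The single 3 h library within the 1.5 h range of their summed level was replicate 2. Of 9 tested monocyte markers 1 rose, Vcan (46.8 ± 4.85 CPM at 3 h, against 30.6 ± 4.06 CPM at 1.5 h, log2 fold change 0.61 ± 0.16, adjusted p = 0.0213), with a median of 0.23 and summed levels of 212, 149 and 196 CPM at 3 h, against 129, 134 and 134 CPM at 1.5 h. Sham hearts already had a summed level of 124 ± 1.96 CPM. In whole tissue the sum cannot tell monocytes from other cells that express these genes. Resident macrophage markers fell in 2 of 13 and rose in 0, with a median of -0.14. Cx3cr1, the fractalkine receptor, had 1.02, 0.887 and 0.455 CPM at 3 h, against 3.21, 3.24 and 1.73 CPM at 1.5 h (log2 fold change -1.77 ± 0.55, adjusted p = 0.0444). Adgre1, the macrophage marker F4/80, had 12.8, 12.1 and 12.7 CPM at 3 h, against 21.2, 16.2 and 17.3 CPM at 1.5 h (log2 fold change -0.54 ± 0.15, adjusted p = 0.0221). All 3 h libraries were lower in both genes, while the summed level of the 13 markers, 402, 323 and 383 CPM at 3 h against 411, 380 and 426 CPM at 1.5 h, overlapped. Itga2b, a platelet integrin, was 1 rise among 5 platelet markers (3.52 ± 0.7103 CPM at 3 h, against 1.404 ± 0.107 CPM at 1.5 h, log2 fold change 1.32 ± 0.32, adjusted p = 0.0108). Of 4 tested atrial cardiomyocyte markers, Nppa rose and Kcnj3 fell, as given above. Among 8 tested T and NK cell, 6 B cell, 5 erythroid, 7 mesothelial, 11 smooth muscle and pericyte, 4 skeletal muscle, 1 adipocyte and 1 lung marker, none was called. The call of Vcan was lost with 3 h replicate 1 or 1.5 h replicates 1 or 3 left out (adjusted p = 0.0969, 0.0655 and 0.0895). Cx3cr1 missed the threshold with 3 h replicates 1, 2 or 3 or 1.5 h replicates 1 or 2 left out, with library totals alone, with limma-voom, with duplicates removed or with the replicate number as a block (adjusted p from 0.0533 to 0.191). The call of Adgre1 was lost with 3 h replicates 1 or 3 or 1.5 h replicate 1 left out, with library totals alone or with only the 6 libraries in the fit (adjusted p from 0.0547 to 0.138). Itga2b missed the threshold with 3 h replicate 1 or 1.5 h replicate 2 left out (adjusted p = 0.0552 and 0.0524).

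The change between 1.5 and 3 h was then set against 2 intervals that share no library with it. From 0.5 to 1 h of reperfusion, 0 genes (0.0%) were called with edgeR, against 1003 (6.63%) at an unadjusted p under 0.05. The same unadjusted threshold was passed by 3513 genes (23.2%) between 1.5 and 3 h. The 0.5 h libraries were scattered, with Jun at 468, 216 and 804 CPM and Zfp36 at 429, 190 and 508 CPM. Whether this spread limited the calls from 0.5 to 1 h was not tested, so 0 calls do not show that no gene changed. A test of the difference between the intervals called 281 genes (1.86%), 197 of them (1.3%) with the higher change between 1.5 and 3 h and 84 (0.555%) with the lower. Jun changed by -1.77 ± 0.35 between 1.5 and 3 h and by 0.66 ± 0.34 between 0.5 and 1 h, a difference of -2.43 ± 0.48 (adjusted p = 0.0119). Zfp36 changed by -1.35 ± 0.27 and by 0.40 ± 0.27, a difference of -1.75 ± 0.38 (adjusted p = 0.0183). Both genes thus fell between 1.5 and 3 h, while their estimates between 0.5 and 1 h were positive. The difference was positive in Hyou1 (2.33 ± 0.38, adjusted p = 0.00433), Osmr (1.52 ± 0.27, adjusted p = 0.00623), Il4ra (1.65 ± 0.32, adjusted p = 0.0108) and Cry1 (1.69 ± 0.30, adjusted p = 0.00636). All these genes were named for their change between 1.5 and 3 h, which is part of each difference. Their adjusted p-values are therefore not independent of that choice, and no alternative run is given for the difference in single genes. The intervals also differ in length, 1.5 h against 0.5 h, which cannot be told apart from their place in the course. The number of genes that differed depended on single libraries. It was 157, 585 and 109 with 3 h replicates 1, 2 and 3 left out, and 58 and 148 with 1.5 h replicates 1 and 2 left out. Leaving out 1 h replicates 1 and 3 gave 141 and 126, and leaving out 0.5 h replicates 1, 2 and 3 gave 166, 94 and 160.

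Between 6 and 12 h, 982 genes (6.49%) rose and 1010 (6.68%) fell, and part of them had moved the opposite way between 1.5 and 3 h. Of the 811 genes that rose between 1.5 and 3 h, 289 (35.6%) fell between 6 and 12 h, which is 28.6% of the falls of that interval, and 2 (0.247%) rose, 0.204% of its rises. Of the 479 that fell, 160 (33.4%) rose between 6 and 12 h, 16.3% of the rises, and 9 (1.88%) fell, 0.891% of the falls. The test of the difference called 3269 genes (21.6%), 1776 (11.7%) with the higher change between 1.5 and 3 h and 1493 (9.87%) with the lower. With library totals in place of TMM factors these became 1003 and 2060, with the median of all genes at -0.13 against 0.02. Cxcl5 changed by 3.18 ± 0.38 between 1.5 and 3 h and by -1.29 ± 0.28 between 6 and 12 h (difference 4.48 ± 0.48, adjusted p = 1.76e-06). Gpr22, which fell by 1.30 on the log2 scale between 1.5 and 3 h, changed by 1.46 ± 0.32 between 6 and 12 h (difference -2.76 ± 0.45, adjusted p = 0.000144). Cxcl5 and Gpr22 too were named for their change between 1.5 and 3 h, so these differences are not independent of that choice. Prg4 had 199 ± 23.2 CPM at 12 h and 193 ± 46.5 CPM at 6 h, a change of 0.05 ± 0.19.

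**Figure D5:**
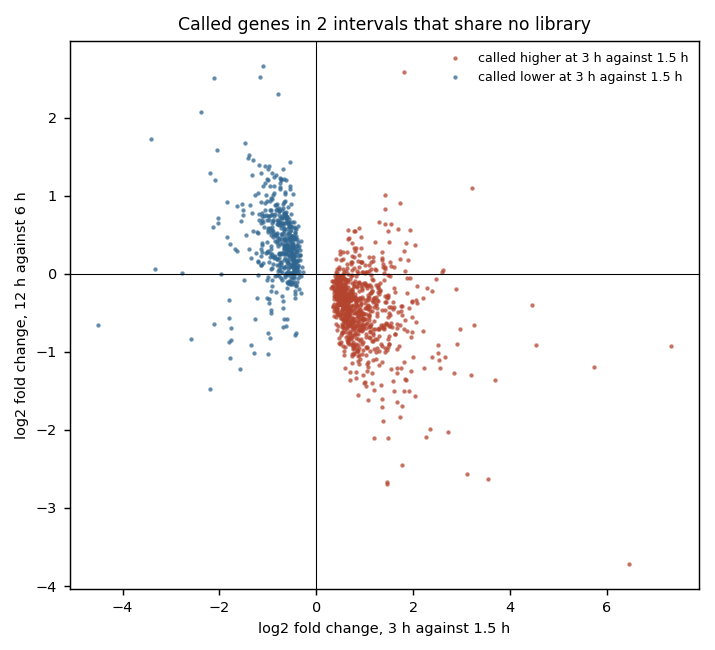
Log2 fold change at 12 h against 6 h (vertical) against log2 fold change at 3 h against 1.5 h (horizontal), with 1 point for each of the 811 genes called higher (red) and 479 called lower (blue) at 3 h. Most red points lie below 0 and most blue points above 0 on the vertical axis, and 289 red and 160 blue genes are called in the opposite direction at 12 h.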

How the data were processed

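Messenger RNA of heart tissue was sequenced in 24 libraries, 3 in each of 8 groups taken from the treatment labels. The authors deposited raw counts of reads per gene for each library, as totals and without reads marked as duplicates, uniquely mapped or with multiply mapped reads, per the file headers. Alignment was to the mm10 build, which the submitters' processing notes name. For the aligner, the counting tool, its strand setting and the annotation, the sources used here give nothing. No molecular identifiers are named, so counts are of reads, not molecules, and the floor of 3 counts covers counting error only.

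Uniquely mapped counts with duplicates kept were analysed with edgeR 4.0.16 and limma 3.58.1 in R 4.3.3. All 24 libraries entered 1 fit, with TMM factors from 0.858 to 1.16, a filter at a count of 10 and a total of 15 that left 15128 of 46078 genes and at least 99.9% of the reads. Residual degrees of freedom were 16, and the biological coefficient of variation was 0.156. Quasi-likelihood tests were adjusted by the Benjamini-Hochberg method over all tested genes, with a threshold of 0.05, and SE belongs to the log2 fold change. The fitting code was tested on simulated data. Symbols were available for 98.0% of gene IDs, and positions are those of GENCODE vM21. Alternatives included DESeq2 1.42.0 and limma-voom.

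The 2 times, the gene lists and the tests were chosen with earlier results of these data known. Named genes are the 10 largest called rises and falls with a mean of at least 5 CPM, no overlap of libraries and at least 80% of reads mapped uniquely, the 2 largest called rises and falls of each list, and Atf3 and Fancd2. Further list members were named after their values had been seen.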

Additional observations from a re-analysis of the deposited data

Results flagged for a closer look

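The difference between the change from 1.5 to 3 h and the change over another interval of reperfusion passed the test for 281 genes against the interval from 0.5 to 1 h and for 3269 genes against that from 6 to 12 h (edgeR's quasi-likelihood test, Benjamini-Hochberg adjustment). Of the 20 genes with the largest called rises and falls at 3 h against 1.5 h, 11 differed from the earlier interval. On the log2 scale, the change from 1.5 to 3 h minus that from 0.5 to 1 h was 2.64 ± 0.57 in Angptl4, 2.35 ± 0.30 in Tead4, 2.30 ± 0.34 in Prg4, 2.28 ± 0.54 in Pik3r5 and 1.94 ± 0.48 in Ubash3b. It was -2.43 ± 0.48 in Jun, -2.21 ± 0.58 in Fos, -1.75 ± 0.38 in Zfp36, -1.60 ± 0.40 in Ier2, -1.55 ± 0.30 in Zfp438 and -1.16 ± 0.26 in Tada2a.

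From the later interval, 14 of the 20 genes differed. The change from 1.5 to 3 h minus that from 6 to 12 h was 4.74 ± 0.61 in Sh2d5, 4.48 ± 0.48 in Cxcl5, 4.36 ± 0.71 in Serpina3f, 3.42 ± 0.44 in Ubash3b, 2.94 ± 0.28 in Tead4, 2.72 ± 0.61 in Met, 2.60 ± 0.56 in Angptl4, 2.57 ± 0.28 in Prg4, 2.51 ± 0.58 in Ankrd2 and 2.33 ± 0.48 in Pik3r5. It was -2.76 ± 0.45 in Gpr22, -2.27 ± 0.31 in Zfp438, -2.10 ± 0.26 in Tada2a and -1.77 ± 0.33 in Srrm4. These genes were picked for their size at 3 h against 1.5 h, which is part of each difference, so the differences describe the genes and are not independent of that choice.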

How the results depend on the processing

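The number of genes changed at 3 h against 1.5 h was 1290 and stayed within 1.5 times of it with DESeq2 size factors, library totals, DESeq2, limma-voom, no filter on low counts, duplicates removed, multiply mapped reads included and mitochondrial genes left out. It was 679 (492 higher and 187 lower) when only the 6 libraries entered the fit, and 525 to 1751 when 1 library was left out. Genes that differed from the interval of 0.5 to 1 h numbered 150 with library totals, 540 with DESeq2, 832 with no filter on low counts and 58 to 585 with 1 library left out, in place of 281. Those that differed from the interval of 6 to 12 h ran from 2269 to 3463 with 1 library left out, in place of 3269, and library totals moved their split from 1776 higher and 1493 lower to 1003 and 2060. Deviations of same-numbered libraries correlated at 0.0400, 0.105 and -0.00461, and those of differently numbered libraries at -0.105 to 0.0686. With 3 libraries in each group these values cannot decide whether replicate numbers mark shared days or batches. The replicate block gave 740 higher and 430 lower. Over the genes named under Results and all alternatives, 1912 values kept their direction and side of the threshold, 269 lost the call, 21 gained one and 3 reversed. The reversals were of Fancd2, never called, whose log2 fold change ran from -1.32 to 0.86 with 1 library left out. It was 0.86 on leaving out 1.5 h replicate 1, 0.15 on leaving out 3 h replicate 2 and 0.18 on leaving out 3 h replicate 3. The causes were not tested. Depth limits genes near 0.186 CPM, where 3 reads remain.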

Other observations

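Further genes outside the lists rose at 3 h against 1.5 h, and these were picked after their values had been seen. Il17ra, the receptor of interleukin 17, had 30.5, 22.8 and 23.4 CPM at 3 h, against 5.21, 7.69 and 12.4 CPM at 1.5 h (log2 fold change 1.60 ± 0.20, adjusted p = 5.00e-05). Csf2rb and Csf2rb2, near-identical receptor chains of the GM-CSF family between which reads can be split, had 9.57 ± 4.36 CPM at 3 h, against 2.52 ± 0.551 CPM at 1.5 h (log2 fold change 1.93 ± 0.28, adjusted p = 0.000192) and 13.8 ± 5.01 CPM at 3 h, against 4.85 ± 2.95 CPM at 1.5 h (log2 fold change 1.51 ± 0.35, adjusted p = 0.00911). Il20rb, a receptor chain of interleukin 20, had 8.09 ± 1.81 CPM at 3 h, against 3.77 ± 0.594 CPM at 1.5 h (log2 fold change 1.10 ± 0.26, adjusted p = 0.0108), and Ccr1, a chemokine receptor of myeloid cells, had 6.93 ± 3.01 CPM at 3 h, against 2.496 ± 0.359 CPM at 1.5 h (log2 fold change 1.48 ± 0.34, adjusted p = 0.00891). Irak3, an inhibitor of interleukin 1 receptor signalling, had 34.03, 15.8 and 20.8 CPM at 3 h, against 7.15, 5.798 and 7.24 CPM at 1.5 h (log2 fold change 1.81 ± 0.25, adjusted p = 0.000102), and Ptx3, a secreted pattern recognition protein, had 142, 68.7 and 125 CPM at 3 h, against 21.4, 28.05 and 49.3 CPM at 1.5 h (log2 fold change 1.76 ± 0.37, adjusted p = 0.0044). Runx1, a transcription factor of blood and injured heart muscle, had 20.8, 8.36 and 9.88 CPM at 3 h, against 6.01, 6.0 and 4.98 CPM at 1.5 h (log2 fold change 1.21 ± 0.31, adjusted p = 0.0168). Sbno2, Lrp8 and Igf2bp2 changed by 1.52 ± 0.27, 2.46 ± 0.60 and 1.95 ± 0.32 (adjusted p = 0.00122, 0.0115 and 0.000524). Among the falls picked in the same way, the signalling ligand Wnt5a had 7.11 ± 0.166 CPM at 3 h, against 14.2 ± 2.45 CPM at 1.5 h (log2 fold change -0.999 ± 0.16, adjusted p = 0.000575), the endothelial homeobox gene Meox2 had 6.57 ± 2.23 CPM at 3 h, against 14.6 ± 4.0 CPM at 1.5 h (log2 fold change -1.14 ± 0.32, adjusted p = 0.0274) and P2ry1, a receptor for ADP, had 7.32 ± 2.27 CPM at 3 h, against 15.9 ± 3.64 CPM at 1.5 h (log2 fold change -1.11 ± 0.26, adjusted p = 0.00939). The DNA repair genes Chek2 and Xrcc2 changed by -1.35 ± 0.38 and -1.01 ± 0.20 (adjusted p = 0.03 and 0.00331).

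Of 323 tested genes named Zfp with a number, 23 (7.12%) were lower and 11 (3.41%) higher at 3 h against 1.5 h, beside 3.17% and 5.36% of all tested genes, and their median was -0.13. This group was also chosen after values had been seen. The number lower was 8 and 6 without 1.5 h replicates 1 and 2, 5 without 3 h replicate 3, 6 with only the 6 libraries in the fit, 13 with limma-voom and 15 with library totals.

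Short motifs were searched on both strands of the RefSeq promoters (GRCm38.p6, 250 bases before to 50 after the start) of the 20 genes with the largest changes, of which 5 of the 10 rises and 8 of the 10 falls had a promoter in the table. The heat shock element GAANNTTC was found in Jun, the AP-1 site TGANTCA in Met, the amino acid response element TGATGNAA in Ubash3b, the E-box CACGTG in Met and Tada2a, and the cAMP response element TGACGTCA in none. Over all promoters the shares were 9.04%, 8.97%, 4.51%, 8.09% and 2.03% in the same order. Of the 22 tested endoplasmic reticulum chaperones, 19 had a promoter in the table. Among these the AP-1 site was found in 2, the amino acid response element in 1 and the E-box in 3. Neither the heat shock element nor the cAMP response element was found in any of them. A match describes letters in this window, not a bound site.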
